A study of Rattus norvegicus with 7 samples.

Results

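The mitochondrial tRNAs and rRNAs of the rat retina were followed through the first 3 weeks after birth. They were taken as every feature that the deposited table annotates as mitochondrial tRNA or mitochondrial rRNA, which gave 22 tRNAs and 2 rRNAs, 24 of the 5491 features in all. The retinas came from untreated Wistar WU rats at 7 ages from P1 to P21 (P1, P3, P5, P7, P10, then P15 and finally P21). P stands for postnatal day. For each age 3 RNA samples from retinas were pooled, and the paper's methods state that the pools were sequenced 2 times on the Ion Torrent PGM after enrichment for small RNAs. With a single value per feature and age, the spread between animals is unknown and no test between ages was possible.

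The mitochondrial genome is a small circle of DNA that is copied into RNA from both strands as long precursors. In these precursors the tRNA sequences lie between the rRNA and protein coding sequences, and their removal by RNase P at the front end and RNase Z at the tail end releases most of the neighbouring RNAs. The tRNAs then receive their CCA ends and serve, with the small and large rRNA of the mitochondrial ribosome, to translate the respiratory chain subunits that this genome encodes. In the retina, photoreceptors carry densely packed mitochondria in their inner segments, which form during the weeks studied here.

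The table names the genes AY172581.1 to AY172581.24 and does not pair these names with amino acids, so the tRNAs are described by name, position and strand. Positions are those of the mitochondrial chromosome (MT) of the rat genome build Rnor_6.0. The 2 rRNAs lie near the start of the forward strand. AY172581.9 (ENSRNOG00000030478.3, positions 68 to 1025, 958 bases) is the shorter and AY172581.24 (ENSRNOG00000043866.1, positions 1094 to 2664, 1571 bases) the longer, and they are called here the small and the large rRNA. The tRNAs lie on the forward strand in 14 cases and on the reverse strand in 8, and they are between 60 and 75 bases long as annotated.

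The values are FPKM, which divide the mapped fragments by a length and by the library size. They are not counts, but the low values at P1 were whole multiples of what 1 alignment is worth. Low values of later ages were sums of 2 such steps (3 at P21). This allowed the alignments behind each value to be estimated, with the steps taken as equal in signal. The length used was not the plain feature length. At P1, 1 alignment was worth 168 FPKM on 60 bases, 24.7 on 156 and 2.30 on 958, which fell more steeply than the length rose. Levels of features of unlike length are thus not per-base levels. By this estimate, the libraries held between 298203 alignments at P1 and 1667342 at P21. Without equal signal per step, the total at P15 could lie between 127546 and 774941, so P1 need not be the smallest library. The least covered tRNA at P1, AY172581.8, had 32 alignments there, and the least covered at P21, AY172581.1, had 884. The counting intervals given below are 95% intervals from these estimates. They hold counting error alone, without differences between animals, and PCR copies are not independent molecules. The values also do not show whether alignments to a tRNA came from the whole molecule or from pieces of it. All 24 genes passed the minimum mean level of 10 FPKM that 5482 features of the table reached. Changes are differences of log2(FPKM + 1), and a gene was called changed where it differed at least 2-fold.

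The mitochondrial tRNAs were lowest at P1, high at P3, lower from P5 to P10, and high again at P21. Their summed level was 267232 FPKM at P1 and 2009509 at P3, then 912141 at P5, 823589 at P7 and 771091 at P10, and finally 1165045 at P15 and 1940269 at P21. P1 stands apart from all later ages, and P3 and P21 were the highest. The low values came from 1 step at P1 and from 2 or 3 steps at later ages. This difference between the libraries cannot be told apart from age. The sum was higher than at P1 by 2.91 on the log2 scale at P3 (counting interval 2.85 to 2.97) and by 2.86 at P21 (2.80 to 2.92), the latter being 2.23 when each library was scaled to its miRNA total. How P3 compared with P21 depended on the scaling. P3 was above P21 by 0.05 (0.03 to 0.07) in the deposited FPKM and by 0.92 with the miRNA total, while TMM scaling over the miRNAs put P3 at -0.08 relative to P21. Of the estimated alignments of a library, the tRNAs held 0.935% at P1 (Wilson 95% interval from 0.901% to 0.97%), 4.57% at P3 (4.51% to 4.64%), between 2.08% and 3.18% from P5 to P15, and 4.21% at P21 (4.18% to 4.24%). In RNA of whole retinas, a change in the number of cells rich in mitochondria and a change in the RNA per cell cannot be told apart.

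All 22 tRNAs were at least 2-fold higher at P21 than at P1. Among all features tested, 26.4% were at least 2-fold higher and 32.5% at least 2-fold lower in this comparison. The difference was between 1.24 and 4.17 on the log2 scale, with a median of 2.98, against a median of -0.15 over the 5482 features. Other RNA classes were compared over features that averaged 20 or more alignments. At least 2-fold higher were 197 of 253 small nucleolar RNAs (median 2.09) and 72 of 97 small nuclear RNAs (median 2.13). The same held for 122 of 352 miRNAs (median 0.20). A higher level at P21 than at P1 was thus not particular to the mitochondrial tRNAs. The counting interval lay above 0 for all 22 tRNAs. Scaled to the miRNA total of each library, 21 tRNAs stayed past 2-fold. Already at P15, 22 of 22 tRNAs were at least 2-fold above P1, compared with 23.4% of all features.

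**Figure D1:**
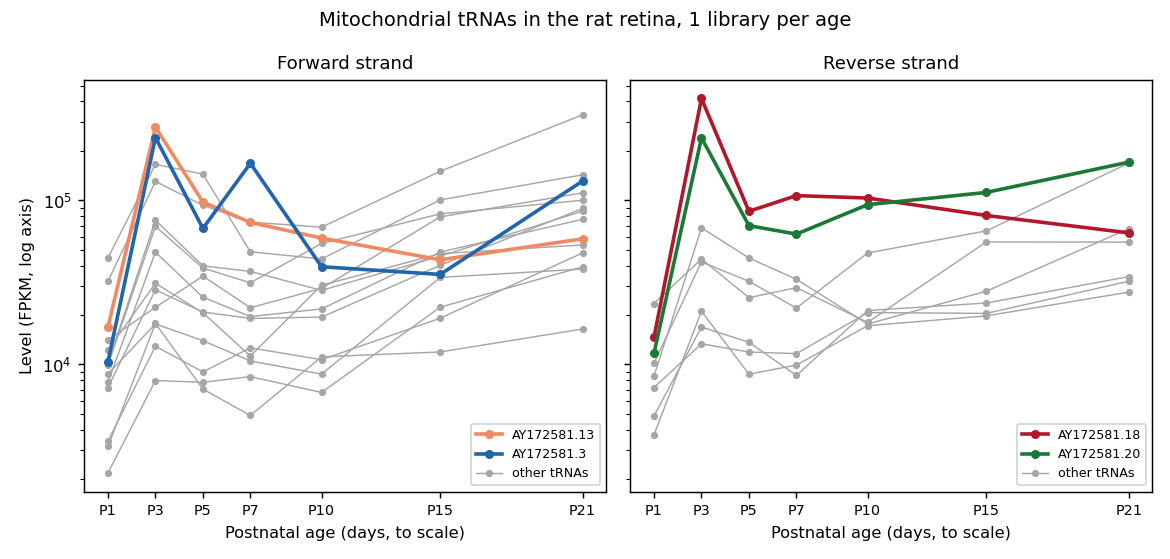
Level of each of the 22 mitochondrial tRNAs (FPKM, log axis) against postnatal age in days, with the 14 forward-strand tRNAs in the left panel and the 8 reverse-strand tRNAs in the right panel. Each line is 1 tRNA with 1 library per age, and the 4 coloured tRNAs, which were the highest at P3, reached between 239882 and 416924 FPKM there and lay between 10403 and 16922 FPKM at P1.

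The tRNA with the highest mean level was AY172581.17 (positions 11606 to 11665, forward strand), the shortest of them. Its level was 32084 FPKM at P1, 130201 at P3 and 93173 at P5, followed by 73609 at P7, 68573 at P10 and 150171 at P15, and by 331703 at P21, where it was the most abundant tRNA with 17.1% of the tRNA sum. The P21 level was 2.21-fold above P15, the next highest age, and 10.3-fold above P1.

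The largest difference between P21 and P1 was that of AY172581.11 (positions 11665 to 11735, forward strand), which shares 1 base with AY172581.17. It was measured at 2183 FPKM at P1, with 7975 at P3, 7784 at P5 and 8427 at P7, before 6749 at P10, 22330 at P15 and then 39347 at P21. The values from P3 to P10 lay close together, and the level then stepped up at P15 and at P21. The difference between P21 and P1 was 4.17 on the log2 scale (counting interval 3.76 to 4.59). Nearer the end of the genome, AY172581.8 (positions 15280 to 15346, forward strand) was at 3407 FPKM at P1 and 12902 at P3, then 9010 at P5, 12627 at P7 and 10682 at P10, and finally 19134 at P15 and 47848 at P21. Its values from P3 to P10 lay between 9010 and 12902 FPKM, and its log2 difference between P21 and P1 was 3.81 (3.31 to 4.32).

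On the reverse strand, AY172581.7 (positions 5256 to 5321) had the largest difference between P21 and P1, 4.04 on the log2 scale (counting interval 3.77 to 4.32). Its level was 10195 FPKM at P1 and 42134 at P3, then 32071 at P5, 22066 at P7 and 47727 at P10, and finally 65092 at P15 and 168137 at P21. The P21 value was 2.58-fold above any other age. Its neighbour AY172581.10 (positions 5185 to 5252), with 3 bases between them, had the smallest difference of all 22 tRNAs, 1.24 (1.02 to 1.46). AY172581.10 was measured at 23495 FPKM at P1, 43894 at P3 and 25511 at P5, followed by 29356 at P7, 18028 at P10 and 55740 at P15, and by 55564 at P21. It was lowest at P10 rather than at P1, and P15 and P21 did not differ beyond counting error. Adjacent tRNAs of the same strand thus differed in their change from P1 to P21, and the log2 ratio of AY172581.7 to AY172581.10 went from -1.20 at P1 to 1.60 at P21.

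**Figure D2:**
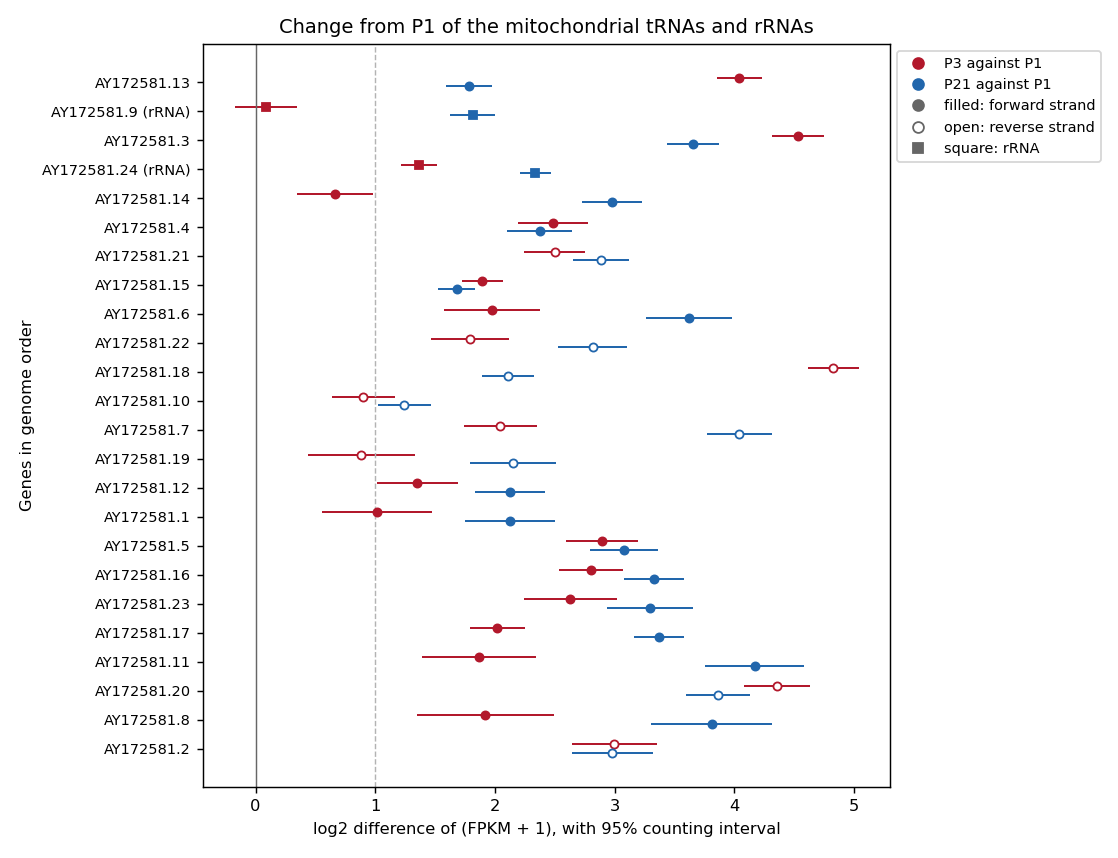
Difference of log2(FPKM + 1) from P1 for each of the 24 genes in genome order, at P3 (red) and at P21 (blue), with 95% counting intervals as horizontal bars. Filled points are on the forward strand, open points on the reverse strand, and squares are the rRNAs. All tRNA values at P21 lie right of the dashed line at 1, which marks a 2-fold difference, while the values at P3 range from 0.66 for AY172581.14 to 4.83 for AY172581.18.

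From P1 to P3, 19 of the 22 tRNAs were at least 2-fold higher, compared with 20.1% of all features. The exceptions were AY172581.14, AY172581.10 and AY172581.19, with log2 differences of 0.66, 0.90 and 0.89. The median of the 22 tRNAs was 2.03, below the 2.91 of their sum. The 4 tRNAs with the highest levels at P3 were AY172581.18, AY172581.13, AY172581.3 and AY172581.20. Since they were chosen by this value, their height at P3 is a description.

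AY172581.18 (ENSRNOG00000032609.3, positions 5081 to 5152, reverse strand) was measured at 14671 FPKM at P1, with 416924 at P3, 85642 at P5 and 106723 at P7, before 103191 at P10, 80763 at P15 and then 63303 at P21. The P3 value was the highest level of any mitochondrial gene in any library. It was 28.4-fold above P1 and 3.91-fold above P7, the next highest age. From P7 on, the level of this tRNA was lower at P15 and again at P21, in contrast to the sum of all tRNAs. Its share of the tRNA sum was 20.7% at P3 and 3.26% at P21.

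AY172581.13 (ENSRNOG00000031780.1, positions 1 to 67, forward strand), the tRNA in front of the small rRNA, followed a like course. Its level was 16922 FPKM at P1 and 279260 at P3, then 97474 at P5, 73261 at P7 and 58822 at P10, and finally 43414 at P15 and 58223 at P21. The value was lower at each step from P3 to P15, and on the log2 scale P21 differed from P3 by -2.26 (counting interval -2.34 to -2.19). In the deposited FPKM, AY172581.18 and AY172581.13 were at least 2-fold lower at P21 than at P3, and 9 of the 22 tRNAs were at least 2-fold higher. Among all features, 26.4% were lower and 22.1% higher by this measure. With the miRNA total, 5 tRNAs were lower, AY172581.3, AY172581.15 and AY172581.20 in addition, and 4 were higher.

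AY172581.3 (ENSRNOG00000029171.3, positions 1026 to 1093, forward strand) fills the gap between the rRNAs and varied most with age, with an SD of 1.57 on the log2 scale over the 7 ages. It was measured at 10403 FPKM at P1, 240985 at P3 and 67369 at P5, followed by 167888 at P7, 39357 at P10 and 35339 at P15, and by 131044 at P21. The P3, P7 and P21 values were each above those of all the other ages. From P5 to P7 it was the only tRNA at least 2-fold higher, by 1.32 on the log2 scale (counting interval 1.22 to 1.41), while 19.6% of all features were at least 2-fold higher. From P7 to P10 it differed by -2.09 (-2.23 to -1.96) and was the only tRNA at least 2-fold lower in the deposited FPKM, with 29.9% of all features at least 2-fold lower. The other scalings placed 2 or 3 tRNAs past 2-fold here, AY172581.3 among them. At P7 it alone made up 20.4% of the tRNA sum.

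AY172581.20 (ENSRNOG00000032997.3, positions 14062 to 14130, reverse strand) was high at P3 and again at P21. Its level was 11692 FPKM at P1, with 239882 at P3, 70019 at P5 and 62221 at P7, before 93974 at P10, 111611 at P15 and then 170595 at P21. P3 was 1.41-fold above P21, and the values were higher at each step from P7 on.

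These 4 tRNAs together held 20.1% of the summed tRNA level at P1 and 58.6% at P3, then 35.1% at P5, 49.8% at P7 and 38.3% at P10, and finally 23.3% at P15 and 21.8% at P21. Their sum was 4.45 higher on the log2 scale at P3 than at P1 (counting interval 4.34 to 4.57), and that of the other 18 tRNAs was 1.96 higher (1.89 to 2.04). From P3 to P5 the 4 tRNAs were lower by -1.88 (-1.93 to -1.83) and the other 18 by -0.49 (-0.55 to -0.44). Choosing the 4 by their P3 level favours larger differences from P1 and P5, so these contrasts are descriptions. From P7 to P21 the sum of the other 18 was higher by 1.88 (1.84 to 1.91) and that of the 4 by 0.045 (0.009 to 0.082). The 4 did not move alike in this interval, since AY172581.20 was 2.74-fold higher at P21 than at P7, while the differences of AY172581.13, AY172581.3 and AY172581.18 were -0.33, -0.36 and -0.75.

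**Figure D3:**
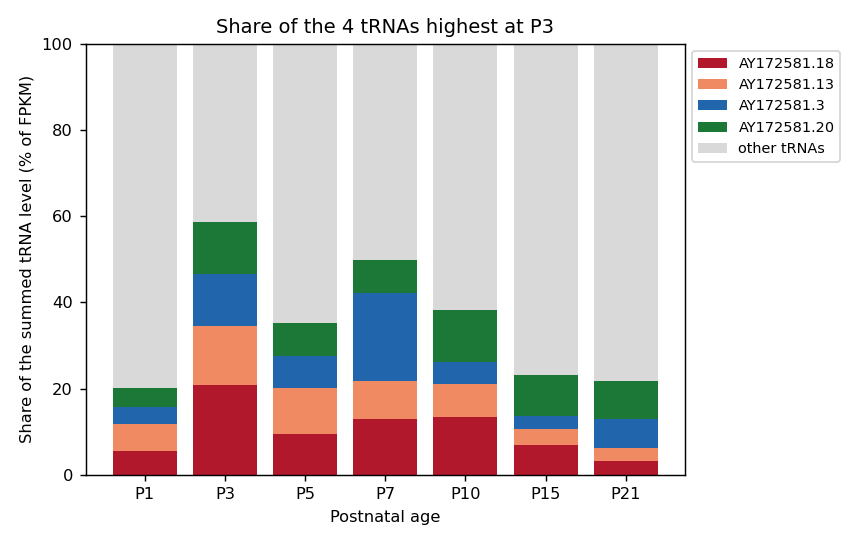
Share of the summed mitochondrial tRNA level (percent of FPKM) held at each age by the 4 tRNAs with the highest level at P3 and by the other 18 tRNAs, as stacked bars that add up to 100. The 4 tRNAs make up 58.6% at P3 and 49.8% at P7, against 20.1% to 38.3% at the remaining ages.

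The evenness of the tRNA pool changed along with this. The effective number of tRNAs, which would be 22 if all had the same level, was 17.0 at P1 and 12.6 at P3, then 15.8 at P5, 14.6 at P7 and 17.2 at P10, and finally 18.1 at P15 and 17.2 at P21. The pool was thus least even at P3 and most even at P15. The most abundant tRNA was AY172581.15 at P1 and P5, AY172581.18 at P3 and P10, AY172581.3 at P7, and AY172581.17 at P15 and P21. Between the highest and the lowest tRNA of a library lay a factor of 52.3 at P3 and of 12.6 at P15. A factor within a library depends on the length by which each level was divided, and the features in the table are longer than the annotated gene for 17 of the 22 tRNAs, by more than 10 bases for 9. The largest excess was 85 bases, for AY172581.21. At P1, 1 alignment was worth 168 FPKM on the shortest tRNA feature (60 bases) and 24.7 FPKM on the longest (156 bases). By estimated alignments, which do not use the length, AY172581.3 and not AY172581.17 had the highest mean, and AY172581.17 ranked 5. A change between ages for the same tRNA does not depend on this length.

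The highest level of a tRNA was that of P21 for 14, that of P3 for 7 and that of P15 for 1. The lowest was that of P1 for 18, that of P10 for 3 and that of P7 for 1 in the deposited FPKM. With median-of-ratios and with TMM scaling over the miRNAs, P1 was the lowest for 21. Among all features tested, the highest level was at P21 for 16.3% and at P3 for 11.5%, and the lowest at P1 for 19.6%. Among features that averaged 20 or more alignments, 193 of 253 small nucleolar RNAs and 57 of 97 small nuclear RNAs were lowest at P1. The margins were narrow for some of them. AY172581.2 was 1.01-fold and AY172581.4 1.08-fold higher at P3 than at P21, within counting error for both. Of the tRNAs lowest at P10, AY172581.1 was at 8735 FPKM there and 8743 at P1, and AY172581.15 at 43881 and 44540. With each library scaled to its miRNA total, the highest level was at P21 for 8 tRNAs and at P3 for 12.

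A P3 level at least 2-fold above both P1 and P5 was seen in 6 of the 22 tRNAs and in 9.67% of all features. The 6 were the 4 described above together with AY172581.4 (positions 3695 to 3763, forward strand) and AY172581.21 (positions 3761 to 3831, reverse strand). The genes of the last 2 overlap by 3 bases on opposite strands, and their courses were similar. Their features in the table are 146 and 156 bases long, 77 and 85 bases longer than the genes. The features can thus share more than 3 bases, and the 2 may not be separate measurements. AY172581.4 was measured at 3167 FPKM at P1, 17783 at P3 and 7077 at P5, followed by 4890 at P7, 11119 at P10 and 11914 at P15, and by 16443 at P21. AY172581.21 was measured at 3731 FPKM at P1, with 21098 at P3, 8721 at P5 and 9914 at P7, before 17207 at P10, 19753 at P15 and then 27571 at P21. Their log2 ratio stayed within a range of 0.78 over the 7 ages. The sources used here do not say whether strand was used in counting, so reads over the shared bases cannot be assigned.

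The P3 library also stood apart in other RNA classes, and the part of this in the tRNA values was not tested. Small nucleolar RNAs (snoRNAs), which guide modification of nuclear encoded RNAs, made up 34.3% of the estimated alignments at P3 against 2.05% at P1 and 9.06% at P5. Small nuclear RNAs (snRNAs) held 3.55%, 1.29% and 2.11% at these ages. Counting the features that averaged 20 or more alignments, the P3 level was at least 2-fold above both P1 and P5 for 70.4% of 253 snoRNAs, 37.1% of 97 snRNAs, 27.3% of the 22 mitochondrial tRNAs, 1.99% of 352 miRNAs and none of the 2 mitochondrial rRNAs. The muscle miRNAs Mir133b and Mir206, found for 2 of the 4 names listed for muscle, summed to 152601 FPKM at P3 and 85676 at P5, and to 2932 to 9742 FPKM in the remaining libraries. Neither was at 0 in any library, but both rested on few alignments. Mir206, with a feature of only 27 bases, had 109 alignments at P3 and 67 at P5. Mir133b had 128 and 89 at these ages, and the mitochondrial tRNAs had 22809 at P3. In the remaining libraries Mir206 had 3 to 8 alignments and Mir133b 4 to 27. Skeletal muscle is rich in mitochondria, and its part in the tRNA levels at P3 and P5 was not tested.

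**Figure D4:**
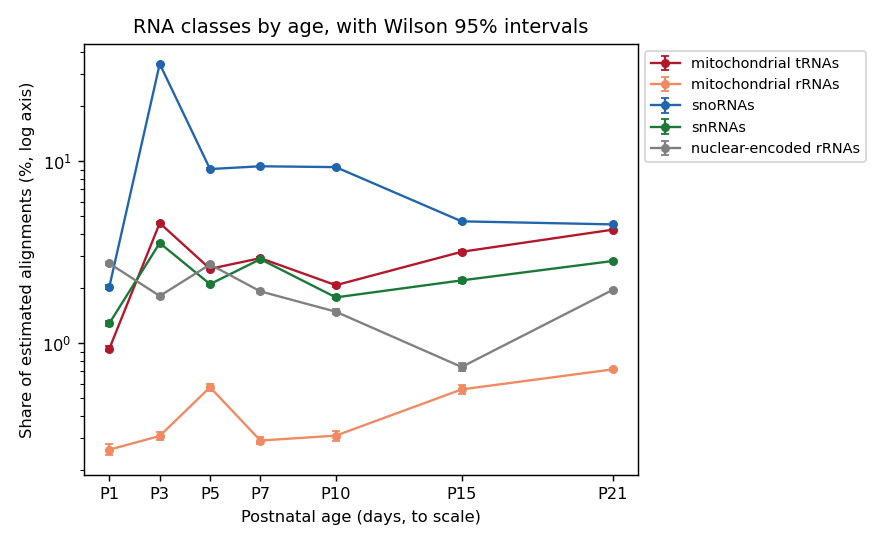
Share of the estimated alignments of each library (percent, log axis) held by mitochondrial tRNAs, mitochondrial rRNAs, snoRNAs, snRNAs and nuclear-encoded rRNAs against postnatal age in days, with Wilson 95% intervals as bars. At P3 the mitochondrial tRNAs, at 4.57%, and the snoRNAs, at 34.3%, have their highest share, while the mitochondrial rRNAs, at 0.309%, are lower than at P5, P15 and P21.

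The mitochondrial rRNAs were also higher at P21 than at P1 but lacked the P3 peak. Their summed level was 1281 FPKM at P1 and 2436 at P3, then 3680 at P5, 1530 at P7 and 2026 at P10, and finally 3488 at P15 and 5603 at P21. The early maximum was at P5 and not at P3, followed by a low value at P7. P21 was above P1 by 2.13 on the log2 scale (counting interval 2.02 to 2.24), against 2.86 for the tRNAs. With the miRNA total, these values were 1.50 for the rRNAs and 2.23 for the tRNAs, and as estimated alignments per miRNA alignment 1.19 and 1.90. In a library prepared from small RNAs, alignments to RNAs of this length come from pieces of them, so their level need not follow that of the whole molecule.

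The small rRNA AY172581.9 was measured at 572 FPKM at P1, 606 at P3 and 1617 at P5, followed by 468 at P7, 468 at P10 and 1244 at P15, and by 2012 at P21. P1 and P3 did not differ beyond counting error, the log2 difference being 0.08 (counting interval -0.18 to 0.34), while the tRNAs on either side of it were 16.5-fold and 23.2-fold higher at P3. The large rRNA AY172581.24 was measured at 709 FPKM at P1, with 1830 at P3, 2063 at P5 and 1062 at P7, before 1559 at P10, 2244 at P15 and then 3592 at P21. It was higher at P3 than at P1 by 1.37 (1.22 to 1.51). The ratio of the large to the small rRNA was 1.24 at P1 and 3.02 at P3, then 1.28 at P5, 2.27 at P7 and 3.33 at P10, and finally 1.80 at P15 and 1.79 at P21. It was high at P3, P7 and P10 and did not follow age in a single direction.

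The 5 genes from AY172581.13 to AY172581.14 lie end to end on the forward strand, with no base between them, in the order tRNA, small rRNA, tRNA, large rRNA, tRNA. Although they abut, their levels did not move together. The features measured are longer than the genes by 22 bases for AY172581.13, 30 for AY172581.3 and 9 for the large rRNA. With no base between the genes, these features may take in bases of their neighbours, so the ratios below may compare overlapping features. The features of the small rRNA and of AY172581.14 matched their genes in length. The log2 ratio of AY172581.3 to the small rRNA in front of it was 4.18 at P1, 8.63 at P3 and 5.38 at P5, followed by 8.48 at P7, 6.39 at P10 and 4.83 at P15, and by 6.02 at P21. AY172581.14 (positions 2665 to 2739), the tRNA after the large rRNA, was measured at 14071 FPKM at P1, with 22276 at P3, 34522 at P5 and 22161 at P7, before 29055 at P10, 79192 at P15 and then 110981 at P21. In the deposited FPKM it was the only tRNA that was lower at P3 than at P5, as both rRNAs were. For the large rRNA the log2 difference of P5 from P3 was small, 0.17 (counting interval 0.06 to 0.28). With the miRNA total it turned to -0.11. The log2 ratio of AY172581.14 to the large rRNA stayed between 3.61 and 5.14. Each of these ratios is taken within a library and does not depend on how the libraries were scaled. The size of a ratio depends on the lengths by which the levels were divided.

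**Figure D5:**
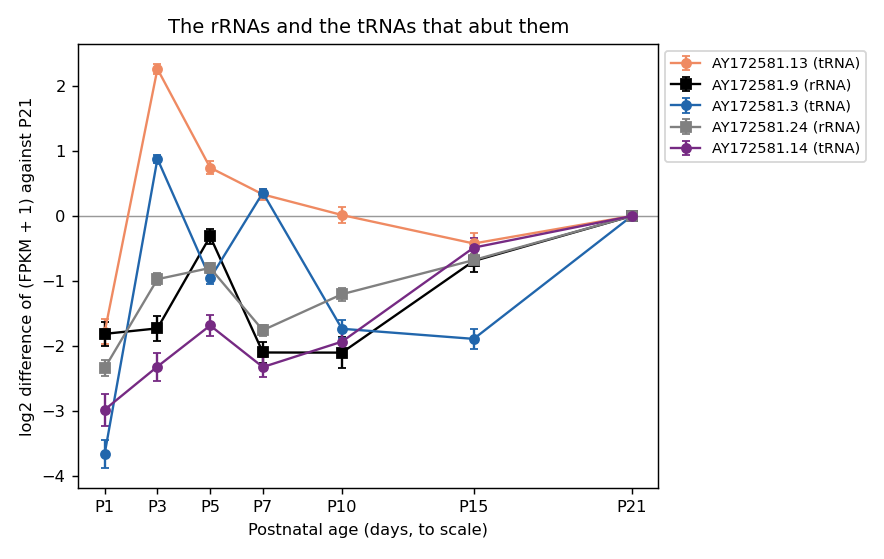
Difference of log2(FPKM + 1) from P21 against postnatal age in days for the 2 rRNAs (squares) and the 3 tRNAs that abut them (circles), with 95% counting intervals as vertical bars. AY172581.13 and AY172581.3 lie above their P21 level at P3, by 2.26 and 0.88, whereas the small rRNA and AY172581.14 lie below it, by a difference of -1.73 and -2.32.

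Relative to the rRNAs, the summed tRNAs were most abundant at P3. There were 3.59 tRNA alignments per rRNA alignment at P1 and 14.8 at P3, then 4.47 at P5 and 10.1 at P7, and after that 6.71 at P10, 5.70 at P15 and finally 5.86 at P21. P3 and P7 were the highest. For the 18 tRNAs other than the 4 highest at P3, the ratio was 2.69 at P1 and 5.33 at P3. It was then 2.59 at P5, 4.26 at P7 and 4.03 at P10, and finally 4.23 at P15 and 4.32 at P21. Here P7 was close to P10, P15 and P21, and it remained above P1 and P5.

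Both strands had nearly the same overall change from P1 to P21. The sum of the 14 forward-strand tRNAs went from 182861 to 1321612 FPKM and that of the 8 reverse-strand tRNAs from 84371 to 618657 FPKM. The log2 difference between these changes, reverse minus forward, was 0.021 (counting interval -0.10 to 0.14). Its sign depended on how the tRNAs were combined, since it was -0.34 as a difference of medians and 0.28 without the most abundant tRNA of each strand. The reverse-strand share of the tRNA sum was 31.6% at P1 and 42.9% at P3, then 32.0% at P5, 34.4% at P7 and 44.1% at P10, and finally 34.8% at P15 and 31.9% at P21. The share of the sum was thus higher at P3 and P10 than at the other ages, and at both ages AY172581.18 was the most abundant tRNA. The medians gave another order. The ratio of the reverse-strand to the forward-strand median was 1.08 at P3 and 0.733 at P10, against 1.23 at P7, the highest, and 0.732 at P21, the lowest. At the level of single tRNAs the median difference between P21 and P1 was 3.19 on the forward strand and 2.85 on the reverse strand.

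From P10 to P15 the strands differed more. The forward sum was higher by 0.82 on the log2 scale (counting interval 0.75 to 0.89) and the reverse sum by 0.25 (0.17 to 0.33). At least 2-fold higher were 7 of the 14 forward tRNAs and 1 of the 8 reverse tRNAs, AY172581.10, compared with 18.8% of all features, and TMM scaling gave 11 forward and 2 reverse tRNAs. The largest difference in this step was that of AY172581.1 (positions 7693 to 7756, forward strand), from 8735 to 33896 FPKM, or 3.88-fold. It had been at 8743 FPKM at P1, 17646 at P3, 13957 at P5 and 10497 at P7, and reached 38119 at P21. From P15 to P21, 6 of the 22 tRNAs were at least 2-fold higher, a share close to the 24.7% of all features. With the miRNA total this held for 1 tRNA, AY172581.3, and with TMM scaling for 2.

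In the deposited FPKM, the other tRNAs of the forward strand were lowest at P1, P7 or P10. AY172581.15 (positions 3835 to 3903) was measured at 44540 FPKM at P1, 165548 at P3 and 144142 at P5, followed by 48550 at P7, 43881 at P10 and 100498 at P15, and by 142924 at P21. It was the most abundant tRNA at P1, and from P5 to P7 it was the only tRNA at least 2-fold lower, as were 12.1% of all features. AY172581.12 (positions 6937 to 7004) was measured at 12234 FPKM at P1, with 31226 at P3, 20637 at P5 and 11259 at P7, before 30356 at P10, 47300 at P15 and then 53447 at P21. As deposited, it was the only tRNA lowest at P7. AY172581.6 (positions 4943 to 5008) stayed between 19074 and 28438 FPKM from P3 to P10, starting from 7225 FPKM at P1 and reaching 40164 at P15 and 89102 at P21.

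In the stretch from position 9383 to 11605, AY172581.5, AY172581.16 and AY172581.23 lie on the forward strand. AY172581.5 (positions 9383 to 9450) was measured at 10160 FPKM at P1 and 75539 at P3, then 39871 at P5, 36862 at P7 and 28261 at P10, and finally 45651 at P15 and 85871 at P21. AY172581.16 (positions 9800 to 9867) was at 9928 FPKM at P1, 69335 at P3 and 38610 at P5, followed by 31431 at P7, 54540 at P10 and 82653 at P15, and by 100031 at P21. AY172581.23 (positions 11538 to 11605), which abuts AY172581.17, was at 7794 FPKM at P1, with 48314 at P3, 25662 at P5 and 19577 at P7, before 21774 at P10, 48372 at P15 and then 76530 at P21. In all 3 the level was lowest at P1, had an early maximum at P3 and was highest at P21. From P7 to P10, AY172581.16 was higher by 0.80 on the log2 scale (counting interval 0.63 to 0.96), while the tRNA sum differed by -0.10. The log2 ratio of AY172581.17 to AY172581.23 stayed within a range of 0.69 over all ages, the narrowest of the 23 pairs of neighbouring genes.

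On the reverse strand, AY172581.22 (positions 5010 to 5078) was measured at 4860 FPKM at P1, 16877 at P3 and 13655 at P5, followed by 8568 at P7, 21305 at P10 and 23660 at P15, and by 34271 at P21. AY172581.19 (positions 6865 to 6933) was at 7234 FPKM at P1, stayed between 11634 and 13362 from P3 to P7, and was at 20700 at P10, 20461 at P15 and 32100 at P21. Both were lowest at P1 and highest at P21. AY172581.2 (positions 15348 to 15415) was instead high at P3 and P21. Its level was 8492 FPKM at P1 and 67913 at P3, then 44484 at P5, 32994 at P7 and 17628 at P10, and finally 27939 at P15 and 67117 at P21.

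By Pearson's r of log2(FPKM + 1) over the 7 ages, AY172581.5 (0.993), AY172581.20 (0.973) and AY172581.23 (0.958) were most like the tRNA sum, of which each is a part. The least like it were AY172581.14 (0.633), AY172581.10 (0.702) and AY172581.19 (0.710), the tRNAs that were less than 2-fold higher at P3 than at P1. The small rRNA had an r of 0.446 and the large rRNA of 0.849. Of the 231 pairs of tRNAs, none had a negative r, and the median was 0.788. The points of each r share the same 7 libraries, so any scaling that shifts a library moves all of these values.

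Markers of retinal cells were present in all libraries and changed with age as well. Mir124, the neuronal miRNA, summed over 3 loci that can share reads to 1020254 FPKM at P1 and 11820000 at P21. The photoreceptor miRNAs Mir183 and Mir96, 2 of 3 names found, summed to 117463 FPKM at P1, 1015632 at P10 and 537842 at P21. Mir204 and Mir211, both of the names listed for the pigment epithelium, summed to 87709 FPKM at P1 and 483914 at P21. The blood miRNAs Mir144 and Mir223, 2 of 3 names found, summed to 4879 FPKM at P1 and to between 950 and 4544 FPKM later. The part of these cell types in the mitochondrial RNA levels was not tested. Rmrp, the RNA of RNase MRP, which has been linked to mitochondrial RNA processing, was at 311 FPKM at P1, 202 at P3 and 444 at P21. Its log2 difference from P1 was -0.62 at P3 (counting interval -1.43 to 0.19) and 0.51 at P21 (-0.02 to 1.04), so neither lay beyond counting error. A second feature, named RNase_MRP in the table, was at 249 FPKM at P1, 319 at P3 and 472 at P21. Its difference from P1 was 0.36 at P3 (-0.44 to 1.16) and 0.92 at P21 (0.30 to 1.54), the latter beyond counting error.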

How the data were processed

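Small RNA of pooled Wistar WU retinas was sequenced at 7 ages. The authors trimmed and mapped the reads against Ensembl noncoding RNAs (Rnor_6.0) and ran Cufflinks, Cuffmerge and Cuffdiff 2.2.1.3, and they deposited FPKM values for 21 pairs of ages. The FPKM deposited for each feature and age did not differ between pairs. The scaling between libraries and the counting of reads with several matches are not given in the sources used here, so reads shared with nuclear copies of mitochondrial DNA are uncertain. The deposited fold changes, p-values and q-values were not used.

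At P1, the worth of 1 alignment could be read off for 526 of 724 feature lengths, and 99.98% of 4860 values under 200 alignments came out whole within 0.02. Later libraries were sums of 2 such steps (3 at P21), taken as equal in signal. Intervals of differences used these estimates. The steps were found again in data simulated from them with equal signal per step, so the simulation could not test that assumption. The design assumed no count test, and none was run. A call was a 2-fold difference among features with a mean of at least 10 FPKM. All 24 genes were named, with Rmrp and marker miRNAs beside them, and Rpph1 was not analysed here. The genes, lists and alternatives were chosen with earlier results of these data known. Alternatives were 3 scalings over the miRNAs, pseudocounts of 0.1 and 10, medians over loci, no filter, leaving out each age, and others added after seeing these values. Python 3.11.15, numpy 2.4.6, pandas 2.3.3, scipy 1.17.1 and matplotlib 3.10.9 were used.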

Additional observations from a re-analysis of the deposited data

How the results depend on the processing

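Over all 21 pairs of ages, 273 of 504 differences of the 24 genes were at least 2-fold, and none of these turned under the 3 scalings, while 45 fell below 2-fold with the miRNA total, 20 with TMM and 13 with median-of-ratios. Of 449 differences beyond counting error, 20, 14 and 4 turned in the same order. The difference in the tRNA sum between P21 and P1 (2.86) was 2.23 with each library scaled to its miRNA total, 2.94 with median-of-ratios and 3.00 with TMM scaling over the miRNAs, and 2.98 as the median of the loci. Of alternatives chosen after the data were seen, alignments per miRNA alignment gave 1.90 and leaving out the tRNAs highest at P3 gave 3.04. The rRNA sum (2.13) moved to 1.50 with the miRNA total, 2.27 with TMM and 1.19 per miRNA alignment. The difference in the tRNA sum between P3 and P1 (2.91) was 3.15 with the miRNA total, 2.03 as the median, and 1.96 without the 4 tRNAs highest at P3. The difference between strands (0.021) was -0.34 as a difference of medians and 0.28 without the most abundant tRNA of each strand, so its sign was not settled. The number of tRNAs highest at P21 (14) was 8 with the miRNA total. From P3 to P21, the numbers at least 2-fold higher (9) and lower (2) were 4 and 5 with the miRNA total. The number lower from P7 to P10 (1) was 3 with the miRNA total and TMM and 2 with median-of-ratios, the number higher from P10 to P15 (8) was 13 with TMM, and that from P15 to P21 (6) was 1 with the miRNA total and 2 with TMM. The cause of these moves was not tested. Of 432 values of single genes against P21 under the 3 scalings, 250 moved beyond their counting interval, 136 of them with the miRNA total. The pseudocounts moved none beyond it. Relative to P21, the miRNA total shifted every gene on the log2 scale, by 0.63 at P1 and 0.87 at P3, and the shifts of TMM lay between -0.14 and 0.35.

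No paired analysis was possible because each age has 1 library. Without P3, the highest tRNA sum was that of P21. A value at a single age, such as P3 or P7, has no replicate, and the estimated alignments of later ages assume equal signal per step, which at P15 allows a library total between 127546 and 774941.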
